A study of Rattus norvegicus with 12 samples.

Results

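The baseline transcript content of unablated rat calvarial bone was read from 4 arrays, the control group of a series of 12 arrays in 3 groups. The calvaria is the bone of the skull roof. All groups were bone of rats aged 10 weeks, at a time point that the labels give as 72 h after surgery. The other groups, laser-ablated and bur-drilled bone with 4 arrays each, were not used here. The labels describe control bone both as non-treated and as bone from which the periosteum had been taken off without ablation, so whether it had surgery is not settled. Strain and sex were not given in the sources used here. No label says that the 4 samples came from separate animals, so the spread described below is that between these samples and may be technical in part.

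A gene name was a member where Agilent's software marked at least 1 of its probes as well above background on all 4 control arrays, and the brightest such probe stood for it. Of 34912 gene names on the array, 18987 were members (54.4%), 12763 of them with a gene symbol. A further 3626 gene names were well above background on some control arrays and 12299 on none. Levels are on the log2 scale, with each array's 75th percentile of intensity set to 0, so 1 unit is a 2-fold difference. Member levels ran from -6.54 to 8.72 with a median of -2.10. A percentile places a gene among the 18987 members by its mean level over the 4 arrays, with 0 for a gene outside the members. Probes differ in how brightly they report a transcript. Among the 4256 gene names with more than 1 detected probe, 76.4% had probes over 2-fold apart, with a median difference of 2.31 between the brightest and the dimmest. The order of genes below is therefore an order of probe signal, not of transcript number.

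Flat bones of the skull form directly from mesenchyme, without a cartilage template. Osteoblasts lay down a matrix of type I collagen and osteocalcin, some of them become osteocytes buried in it, and osteoclasts, which descend from the monocyte lineage, remove it. Between the bony plates lies marrow that makes red cells, granulocytes, platelets and B cells. Periosteum and suture fibroblasts cover and join the plates, muscle attaches at their edges, and the meninges line their inner face. In bulk RNA, fewer cells of a type and less RNA per cell cannot be told apart.

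All 4 control arrays lay on 1 slide and were scanned once. Between 66.7% and 67.8% of spots were well above background on each array, no spot was saturated, and the 75th percentile of intensity was 673.7 to 836.3. Their number limits the precision of every value below.

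The brightest transcripts came from blood cells, ribosomes and bone matrix. Hba1, the alpha chain of haemoglobin, ranked first with levels of 8.87, 8.89, 8.46 and 8.65 on controls 1 to 4. The 4 values lay close together. Rn45s, the precursor of ribosomal RNA, ranked 2 at 8.47 ± 0.10 (SD, n = 4), and Rpl41, a ribosomal protein, ranked 3 at 8.47 ± 0.04. Hbb-b1, a beta chain of haemoglobin, ranked 5 at 8.35 ± 0.26. Bglap, which encodes osteocalcin, ranked 7, with 7.75, 8.25, 8.01 and 7.88, so a bone matrix gene stood among the 10 brightest names. Col1a1, a chain of type I collagen, ranked 10, with 7.69, 8.23, 7.52 and 7.73. The neutrophil defensin Np4 ranked 14 at 7.72 ± 0.45 and the calprotectin chain S100a9 ranked 23 at 7.44 ± 0.71. Col1a2 ranked 26 at 7.37 ± 0.17, Sparc, which encodes the matrix protein osteonectin, 29 at 7.20 ± 0.48, and Lyz2, the lysozyme of myeloid cells, 33 at 7.14 ± 0.17. Also among the 30 brightest symbols were the ribosomal protein genes Rplp0, Rplp1, Rplp2, Rps10, Rps12, Rps20 and Rps29, the globin gene Hbe2, the defensin genes RatNP-3b and Defa5, S100a8, Ftl1, Myl6l and Actg1. Globin, defensin and ribosomal protein genes have near-identical copies, and a probe may report more than 1 of them.

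Signal was concentrated in few names. The 10 brightest held 5.90% to 7.44% of the summed linear signal of all members on an array, the 100 brightest 29.3% to 31.8%. Each array had 90 to 93 of its own 100 brightest names in common with the 100 brightest by mean.

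**Figure D1:**
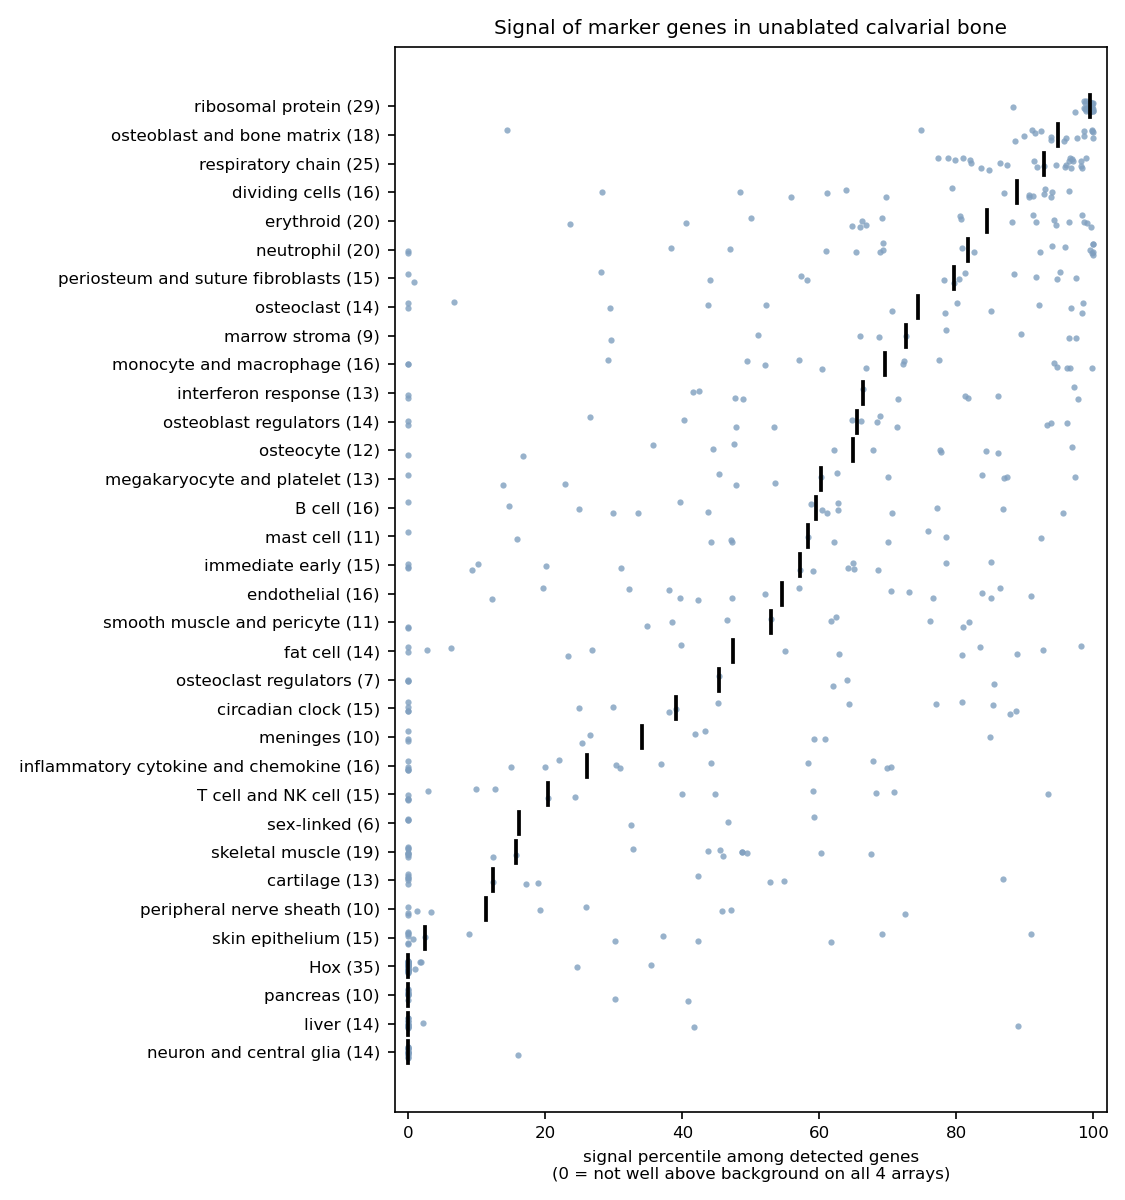
Signal percentile of each marker gene (points) by list, with the number of list genes on the array in brackets and the list median as a bar; a percentile of 0 marks a gene not well above background on all 4 control arrays. Ribosomal protein (median 99.5) and bone matrix genes (94.8) sit at the top, and neuron, liver, pancreas and Hox genes have medians of 0.

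Among the 30 brightest symbols, Mitf, Ceacam9 and Smc4 belong to genes that are not known as major transcripts of bone, marrow or housekeeping. Smc4, a condensin subunit, ranked 30 at 7.18 ± 0.12, and its other probe had a mean of -1.28. Mitf, a transcription factor of melanocytes, osteoclasts and mast cells, ranked 24 at 7.43 ± 0.20, and its other probe had a mean of 0.25. The array held a single Ceacam9 probe. Of the 100 brightest names, 57 had more than 1 probe on the array, and in 16 of these the brightest probe stood more than 4 (16-fold) above the next. The neutrophil genes S100a8 and RatNP-3b were among these 16, so a wide gap was not limited to the names with repeated letters. Wide gaps were also common outside the brightest names. Of all 4256 gene names with more than 1 detected probe, 982 (23.1%) had their brightest and dimmest detected probes over 4 apart. That measure differs from the gap to the next probe, so the 2 counts are not directly comparable.

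The bright probes of these names hold repeated or shared letters, shown here as stretches of 30 bases from the deposited probe sequences, with the shared or repeated letters in capitals. Azgp1, Gca and Cldn15, also among the 100 brightest names, are added. Azgp1 shares a stretch with Ceacam9, whereas Gca and Cldn15 carry a repeat of TG. Tp63 and Ahsg are added because each was the brightest gene of a list for another tissue. These additions were chosen after their values were seen.
Smc4: cagtccctggCCCTGGGTTCagtccacagc
Ceacam9: gctcatgacCATCTGTAATGgccctcttct
Azgp1: CCCTCTTCTGGtgtgtttgaaaacagctac
Gca: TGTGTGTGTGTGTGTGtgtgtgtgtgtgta
Cldn15: gTGTGTGTGTGTGTGTGtgtgtgtttaaag
Mitf: AAGAAGAAGAAGAAGAAGaagaagaagaag
Tp63: tacaggCAGCAGCAGCAGCAGCAGcaccaa
Ahsg: tatttgCTGCTGCTGCTGCTGCTGctgctg
The file headers name build rn4, on which the probe annotation places the Smc4 probe at chr2:159001380-159001439 and the Mitf probe at chr6:33204183-33204242. Whether these positions lie within the named genes at all, or are exonic or in a UTR, was not looked up. No rn4 annotation was used here. The capitals of Smc4 are letters of the ID family, and those of Ceacam9 and Azgp1 letters of the B2 family, both short interspersed repeats present in very many copies in the rat genome.

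Over all 45598 probes, 53.7% were well above background on all 4 arrays and the median level was -5.38. The stretch TGTGTGTGTGTGTGTG occurred in 42 probes (0.0921%), all 42 were well above background on all 4 arrays, and their median level was 4.27. Its reverse complement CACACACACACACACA occurred in 28 probes (0.0614%), of which 27 were well above background on all 4, with a median of -1.48. The stretch AAGAAGAAGAAGAAGAAG occurred in 4 probes, all among the 100 brightest of the array with a median of 7.59, and CTTCTTCTTCTTCTTCTT in 1 probe, which was not well above background. CCCTGGGTTC occurred in 8 probes, of which 7 were well above background on all 4 arrays with 2 among the 100 brightest, and GAACCCAGGG in 5, of which 3 were. CATCTGTAATG occurred in 3 probes with a median of 7.40, and CATTACAGATG in 2 with a median of -4.66. CCCTCTTCTGG also occurred in 3 probes, and the Ceacam9 probe holds it as well as CATCTGTAATG. CAGCAGCAGCAGCAGCAG occurred in 2 probes with a median of 2.06, and CTGCTGCTGCTGCTGCTG in 1, that of Ahsg. The probes with TG repeats varied together between arrays, with median deviations of 0.72, 0.08, -1.22 and 0.40 from their own means on controls 1 to 4, and those with CA repeats ran the other way, with -0.59, 0.08, 1.08 and -0.52. A match to these letters is a description of the probe. Its part in the signal was not tested.

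**Figure D2:**
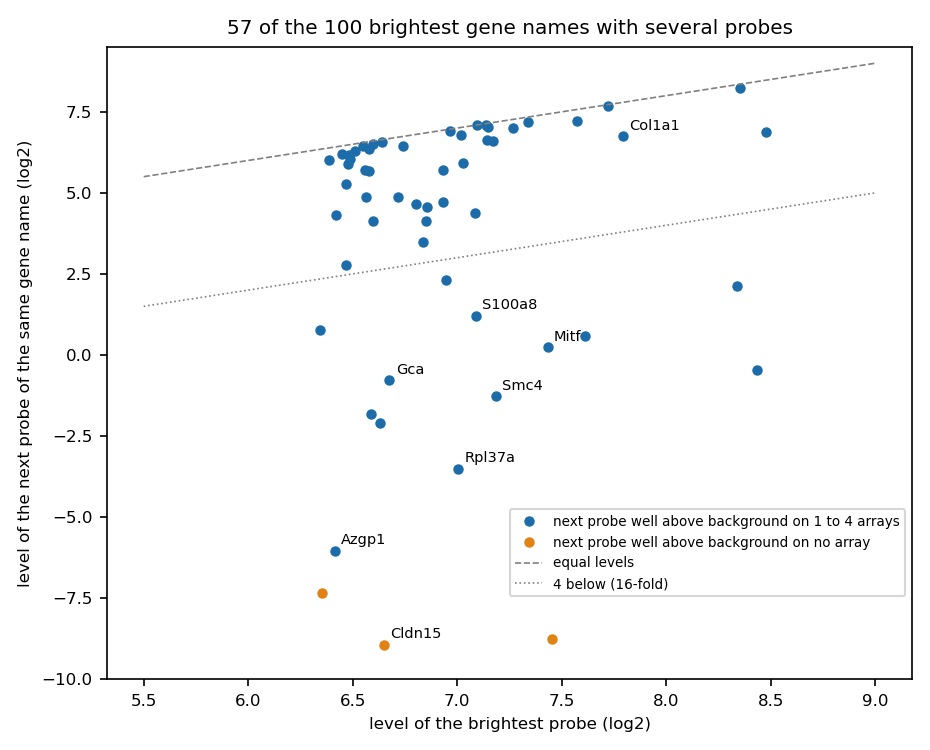
Mean level over the 4 control arrays of the brightest probe (x axis, log2) and of the next probe of the same gene name (y axis, log2), for the 57 of the 100 brightest names with several probes. In 16 names the next probe lies below the dotted line, more than 4 lower, with Smc4, Mitf and Cldn15 among them.

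Most bone matrix genes were bright. All 18 genes of the osteoblast and bone matrix list were members, with a median percentile of 94.8, 14 stood in the top decile of the members, and 4 were among the 100 brightest names. Beside Bglap, Col1a1, Col1a2 and Sparc, the proteoglycan Bgn read 5.06, 5.79, 5.85 and 4.42, and Spp1, osteopontin, 5.18, 5.38, 5.46 and 4.50. Control 4 was the lowest of the 4 for both. Ibsp, bone sialoprotein, had a mean of 1.99 ± 0.23, Ifitm5, an osteoblast membrane protein, 1.70 ± 0.43, and Smpd3, a sphingomyelinase needed for mineralisation, 1.89 ± 0.67. Alpl, tissue-nonspecific alkaline phosphatase, stood lower at percentile 74.9, with -0.04, 0.08, 0.21 and -0.54. Phospho1, a phosphatase of matrix vesicles, was the dimmest of the list at -4.80 ± 0.56. Mgp, matrix Gla protein, which cartilage and vessels also make, had the widest range of the list, with 5.78, 3.56, 4.91 and 2.37, and control 1 was the highest.

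The probes for Bglap, Col1a1 and Sost lie at chr2:180482313-180482372, chr10:83639260-83639319 and chr10:91026551-91026610 of rn4. A second Col1a1 probe read 6.58, 7.01, 6.81 and 6.64, lower than the first and again highest on control 2. Bglap and Sost had a single probe each.

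Regulators of the osteoblast lineage were less bright than its matrix genes. Of 14, 12 were members, with a list median at percentile 65.5. Dlx3, a homeobox factor of bone and skin, was the brightest at 3.29 ± 0.11, then Pth1r, the parathyroid hormone receptor, at 2.49 ± 0.19 and Atf4 at 2.37 ± 0.11. These 3 were also steady. Runx2, the factor that commits cells to the osteoblast lineage, read -1.17, -0.50, 0.14 and -1.05. Sp7, which acts after Runx2, read -4.19, -3.78, -3.76 and -3.87, with a narrower spread at a much lower probe signal. Bmp2, a bone growth factor, read -1.14, -0.16, -0.55 and -1.45. It was higher on controls 2 and 3 than on controls 1 and 4. Twist1, a factor of cranial sutures, read -2.08, -1.48, -1.12 and -2.66. Msx2 was well above background on controls 1 and 3 only, and Alx4 on control 3 only.

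Osteocyte genes were detected from the early to the late stage of embedding. Of 12, 11 were members, with a median at percentile 65.0. Mepe, a matrix phosphoglycoprotein of osteocytes, was the brightest with 3.87, 3.96, 3.63 and 3.28. Pdpn, found on the dendrites of early osteocytes, read 0.51, 1.88, 2.05 and 0.23, and Gja1, the gap junction protein of osteocyte processes, 0.42, 1.38, 1.66 and 0.36. Controls 2 and 3 were above controls 1 and 4 for both. Dmp1, a matrix phosphoprotein of osteocytes, read -0.29, 0.46, 0.57 and 0.09, and Phex, a peptidase that restrains phosphate loss, -5.42, -4.05, -4.37 and -4.64. Sost, which encodes sclerostin, the osteocyte inhibitor of Wnt signalling named in the title of the study, read -2.96, -3.45, -3.06 and -3.31, a mean of -3.20 ± 0.23 at percentile 35.7. Its range of 0.49 was narrower than the median range of 0.68 over all members. Dkk1, another Wnt inhibitor, had a mean of -1.16 ± 0.41. Fgf23, the phosphate hormone of osteocytes, was well above background on no array.

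Osteoclast genes covered a wide span of signal. Of 14 on the array, 12 were members, with a median at percentile 74.4, and the others were well above background on some arrays. Acp5, tartrate-resistant acid phosphatase, read 5.28, 4.48, 5.84 and 4.36, and Ctsk, the collagen-degrading protease cathepsin K, 5.25, 4.53, 5.70 and 4.08. Both had the same order of arrays, with control 3 the highest and control 4 the lowest. Atp6v0d2, a proton pump subunit, had the same order, with 0.54, 0.11, 1.70 and -0.52. Car2, carbonic anhydrase 2, which red cells also hold, had 3.93, 3.50, 2.33 and 4.54, lowest on control 3. Mmp9, which neutrophils also hold, read 0.27 ± 0.22, Nfatc1, the main factor of osteoclast formation, 1.05 ± 0.33, and Calcr, the calcitonin receptor, -2.21, -3.59, -1.88 and -2.65. Tnfrsf11a, which encodes the receptor RANK, was well above background on controls 1, 3 and 4, and Dcstamp, needed for fusion, on controls 1 and 3.

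Of 7 genes that regulate osteoclasts, 4 were members, near the share of 54.4% over all gene names. Tnfrsf11b, which encodes the decoy receptor osteoprotegerin, read -2.49, -2.21, -1.89 and -3.23, whereas its target Tnfsf11, RANKL, was well above background on control 3 only. Csf1, the growth factor of the lineage, had a mean of -1.16 ± 0.33, and Il34, which binds the same receptor, read -0.50, -0.86, -0.29 and -2.35, lowest on control 4.

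Cartilage genes were mostly dim. Of 13, 7 were members, near the share of 54.4% over all gene names, with a list median at percentile 12.4. Matn1, Matn3 and Col10a1, the collagen of hypertrophic cartilage, were well above background on no array. Col2a1, the main cartilage collagen, read -5.51, -4.65, -4.35 and -5.27, near the lower end of the members. Col11a1, which bone also expresses, was the brightest at 1.25 ± 0.74, and Sox9, the cartilage factor also found in fibrous cells, was at -1.88 ± 0.30. Comp, which tendon also makes, had the widest range, with -0.76, -3.15, -2.30 and -4.56, and control 1 was the highest.

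Erythroid genes were strong and varied together. All 20 were members, with a median at percentile 84.4, and all 20 had a range over 1 among the arrays, against 28.2% of all members. Every one of the 20 was highest on control 4 and lowest on control 3. Ahsp, the chaperone of the alpha chain, read 7.20, 6.72, 5.35 and 7.58, and Alas2, the first enzyme of haem synthesis in red cells, 5.55, 4.59, 3.22 and 5.93, a 6.52-fold range. Tspo2, a red cell membrane protein, had the widest range of the list, 2.89. Gata1 and Klf1, factors of the lineage, read -0.33, -0.44, -2.33 and 0.01, and -0.79, -1.04, -2.08 and 0.09. Epor, the erythropoietin receptor, read 2.60, 1.96, 0.37 and 2.73. The mean deviation of the list was 0.37, -0.10, -1.35 and 1.08 on controls 1 to 4, and the summed linear signal of its genes was 0.750%, 0.530%, 0.259% and 1.06% of all members' signal. Hba1 and Hbb-b1, outside the list, had ranges of 0.43 and 0.57, much narrower than that of Hba2, with 6.07, 5.48, 4.84 and 7.02. Hba1 and Hbb-b1 were also lowest on control 3, but Hba1 was highest on control 2 and Hbb-b1 on control 1.

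Promoters of the erythroid genes are shown as a description of a list whose genes varied together. Whether promoter sequence or the amount of marrow has a part in that variation was not tested. In the RefSeq promoter table of assembly GRCr8, 15 of the 20 were found, and 5 of these (33.3%) held AGATAA or its reverse complement TTATCT, a core motif of GATA factors, in the 250 bases before the start, against 10.0% of all 27457 promoters of that length. The 5 were Alas2, Epor, Rhd, Sptb and Trim10. The stretches around the match in Alas2, at chrX:22895274-22895359 on the plus strand, and Epor, at chr8:28770391-28770476 on the minus strand, both of GRCr8, read as follows, with the match in capitals.
Alas2: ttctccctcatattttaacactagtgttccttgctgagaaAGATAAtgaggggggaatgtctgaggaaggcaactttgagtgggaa
Epor: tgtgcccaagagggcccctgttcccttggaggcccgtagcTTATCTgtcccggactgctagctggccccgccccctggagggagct
The match began 136 bases before the start of Alas2 and 114 before that of Epor. Such stretches were also sought for Klf1, Gata1 and Ahsp, and none was found. Of other lists searched for this motif, 3 of 10 mast cell and 3 of 11 megakaryocyte promoters held it. ACCACA, a core motif of RUNX factors, or its reverse complement stood in 3 of 12 bone matrix promoters, those of Bglap, Sparc and Serpinf1, and in 1 of 9 osteocyte promoters, that of Mepe, against 14.1% of all.

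**Figure D3:**
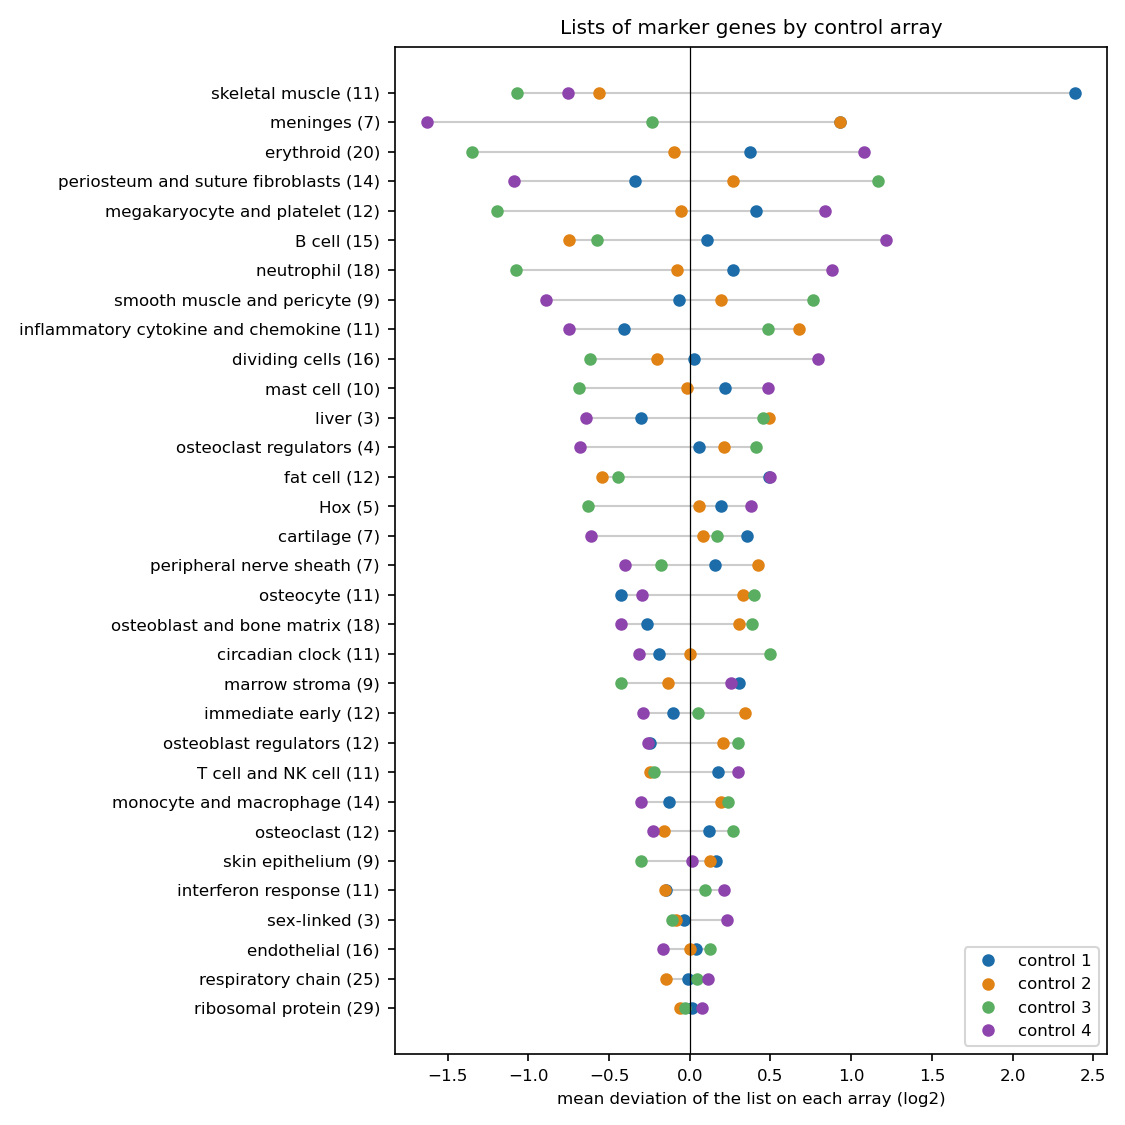
Mean deviation (log2) of each list's detected genes from their own means on controls 1 to 4 (points), with the number of genes in brackets, ordered by range; lists with under 3 detected genes are left out. Erythroid genes run from -1.35 on control 3 to 1.08 on control 4, skeletal muscle reaches 2.38 on control 1, and ribosomal protein genes stay within 0.07 of 0.

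Neutrophil genes had nearly the same order of arrays. Of 20, 18 were members, with a median at percentile 81.7, all 18 had a range over 1, and all 18 were lowest on control 3. Of these, 5 were among the 100 brightest names. S100a9 read 7.91, 7.67, 6.38 and 7.79, S100a8 7.49, 7.32, 6.12 and 7.43, and Camp, the granule peptide cathelicidin, 6.88, 6.45, 5.27 and 6.73. For these 3, which are made late in granulocyte maturation, controls 1, 2 and 4 lay close together and control 3 stood below them. Of the 18, 15 were highest on control 4, and S100a8, S100a9 and Camp on control 1. The 15 held the early granule genes Mpo, Elane and Prtn3, but also Mmp8 and the defensin genes Np4, Defa5 and RatNP-3b. Mpo, myeloperoxidase, read -1.41, -1.77, -2.16 and 0.40, Elane, neutrophil elastase, -0.99, -1.18, -1.93 and 0.51, and Prtn3, proteinase 3, 2.89, 2.29, 1.33 and 3.60. Mmp8, neutrophil collagenase, had the widest range, with -0.41, -0.04, -2.46 and 0.61. Ltf, lactoferrin, was well above background on no array, and Bpi on 3.

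B cell genes were highest on control 4 and low on both controls 2 and 3. Of 16, 15 were members, with a median at percentile 59.5, 14 had a range over 1, and 14 were highest on control 4. Cd79b, a chain of the B cell receptor, read -1.34, -2.33, -1.90 and -0.11. Genes of precursor B cells were also highest on control 4. Igll1, part of the surrogate light chain, read -1.26, -2.05, -1.54 and 0.41, Vpreb1, its partner, -3.97, -5.49, -4.13 and -2.50, Rag1, which cuts receptor genes, -4.83, -5.95, -5.36 and -2.97, and Dntt, which adds bases at the cut, -4.06, -4.39, -3.97 and -2.17. Pax5, the factor of the lineage, varied less, at -2.58 ± 0.20.

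Megakaryocyte and platelet genes followed the erythroid order at control 3. All 12 members of 13 were lowest there, and 9 were highest on control 4. Pf4, platelet factor 4, read 4.56, 3.80, 2.85 and 4.47, Ppbp, a platelet chemokine, 1.70, 1.27, -0.13 and 2.25, and Itga2b, the platelet integrin, -1.95, -2.31, -3.49 and -1.25. Of 10 detected mast cell genes, 9 were lowest on control 3. Cma1, a mast cell chymase, was the brightest with 2.44, 2.07, 1.42 and 2.69, and Fcer1a, a chain of the IgE receptor, read -2.64, -2.49, -3.24 and -1.80.

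Genes of dividing cells stood high, with all 16 members at a median percentile of 88.8. All 16 were highest on control 4, and 15 were lowest on control 3. Ccnb1, a mitotic cyclin, was lowest on control 1. Mki67, a protein of cycling nuclei, read 2.78, 2.39, 1.54 and 3.45, Rrm2, which makes DNA precursors, 3.43, 3.27, 2.75 and 4.17, and Cdk1, the mitotic kinase, 2.37, 1.99, 1.78 and 2.98.

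Monocyte and macrophage genes did not share 1 order. Of 16, 14 were members, with a median at percentile 69.5, and 7 had a range over 1. Lyz2 and the complement genes C1qa, C1qb and C1qc were bright or moderate, with C1qa at 2.62 ± 0.15 and C1qb at 3.49 ± 0.26. Siglec1, a receptor of tissue macrophages, read -0.95, 0.45, 0.65 and -1.37, and Msr1, a scavenger receptor, -2.34, -0.99, -1.13 and -3.25, both higher on controls 2 and 3. Cd163, the receptor for haemoglobin complexes, ran the other way, with 0.85, -0.29, -0.54 and 0.73. Marco and Vsig4 were well above background on no array. T cell and NK cell genes were mostly dim, with 11 of 15 detected, a median at percentile 20.4, and Cd5 and Klrb1 on no array. Nkg7, a granule gene, was the exception with 2.67, 2.00, 1.36 and 3.56, in the order of the erythroid genes. Cd3g read -0.32, -1.11, -0.76 and 0.47, and Cd3e -4.92 ± 0.14.

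All 9 marrow stroma genes were members, with a median at percentile 72.6. Cxcl12, the chemokine that holds blood stem cells in marrow, read 4.59, 3.90, 3.29 and 4.58, and Vcam1 3.89, 3.05, 2.73 and 3.93, both lower on control 3 than on controls 1 and 4. Lepr, the leptin receptor of marrow stroma, had a mean of -2.02 ± 0.45. Among fat cell genes, 12 of 14 were members, with a median at percentile 47.4, and Ucp1 was on no array. Adipoq, adiponectin, read 1.27, -0.45, 0.19 and 1.20, Gys2 -1.99, -3.98, -3.94 and -1.56, and Lep -2.68, -5.13, -4.41 and -3.28. All 3 were higher on controls 1 and 4 than on controls 2 and 3. Cfd, adipsin, was bright and steadier at 4.71 ± 0.40.

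Fibroblast genes of periosteum and suture were present and had close to the reverse order of the marrow genes. Of 15 on the array, 14 were members, with a median at percentile 79.7, and 12 had a range over 1. Control 3 was highest for 11 of the 14 and control 4 lowest for 10, and the list deviated by -0.34, 0.27, 1.16 and -1.09 on controls 1 to 4. Col3a1, the collagen of loose connective tissue, read 3.13, 4.69, 5.98 and 2.65. Postn, periostin, read -1.42, 0.69, 3.03 and -1.30, Aspn, asporin, -2.16, -0.98, 1.47 and -4.47, and Dpt, dermatopontin, -3.63, -1.38, 0.42 and -5.63, a 66.4-fold range. Prrx1, a factor of cranial mesenchyme, read 0.91, 2.09, 2.65 and 0.32, and Gli1, a marker of suture stem cells, -4.05, -3.30, -2.81 and -4.94. Fmod, fibromodulin of tendon and bone, differed in order, with 4.04, 2.80, 3.65 and 1.06. Tnmd, a tendon gene, was well above background on controls 1 to 3 with -1.90, -5.40 and -4.45, and not on control 4. Thbs4 was steady, at 2.00 ± 0.23. The labels say that periosteum was removed from control bone in 1 of their descriptions, and how much of it was left on each sample was not tested.

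Smooth muscle and pericyte genes shared the fibroblast order, with 9 of 11 detected, control 4 lowest for 8 and control 3 highest for 7. Acta2, smooth muscle actin, read -1.93, -1.46, -0.88 and -3.18, and Rgs5, a pericyte gene, -3.16, -2.33, -0.91 and -3.03. Lmod1 and Cnn1 were on no array. Endothelial genes were all detected, and their mean deviations of 0.04, 0.00, 0.13 and -0.17 combined genes of different orders. Of the 16, 7 had a range over 1, 11 were highest on control 3 and 10 lowest on control 4. Kdr, a VEGF receptor, was the brightest at 1.88 ± 0.24, and Pecam1 had 1.11, 1.12, 1.26 and 0.69. Vwf, which platelets also carry, read 1.58, 0.69, -0.17 and 1.43, lowest on control 3, as was Stab2 of sinusoids, with -2.38, -3.18, -3.45 and -1.72. With arrays centred on spike-in controls, the endothelial deviations reached 0.44 between the highest and the lowest array.

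Skeletal muscle genes set control 1 apart. Of 19 on the array, 11 were members, near the share of 54.4% over all gene names. All 11 were highest on control 1. The mean deviations were 2.38, -0.56, -1.07 and -0.75. Tnni2, troponin I of fast fibres, read 0.97, -2.99, -3.26 and -3.48, Atp2a1, the calcium pump of fast fibres, 0.71 on control 1 and between -3.46 and -2.81 on the others, and Actn3, fast-fibre actinin, 0.36, -3.92, -4.62 and -5.44, a 55.4-fold range. Myh8, a myosin heavy chain outside the list, read 2.47, -3.47, -3.78 and -5.63. Myh4, Myl1, Mybpc2 and Casq1 were well above background on control 1 only, with Myh4 at -2.72 there. Myh1 and Pvalb were not well above background on control 4. Tnnt1, a troponin of slow fibres, differed least, with -0.16, -0.68, -1.66 and -0.38, and the slow and type 2A myosin genes Myh7 and Myh2 were on no array. Without control 1, the list's range between arrays was 0.51 in place of 3.46.

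**Figure D4:**
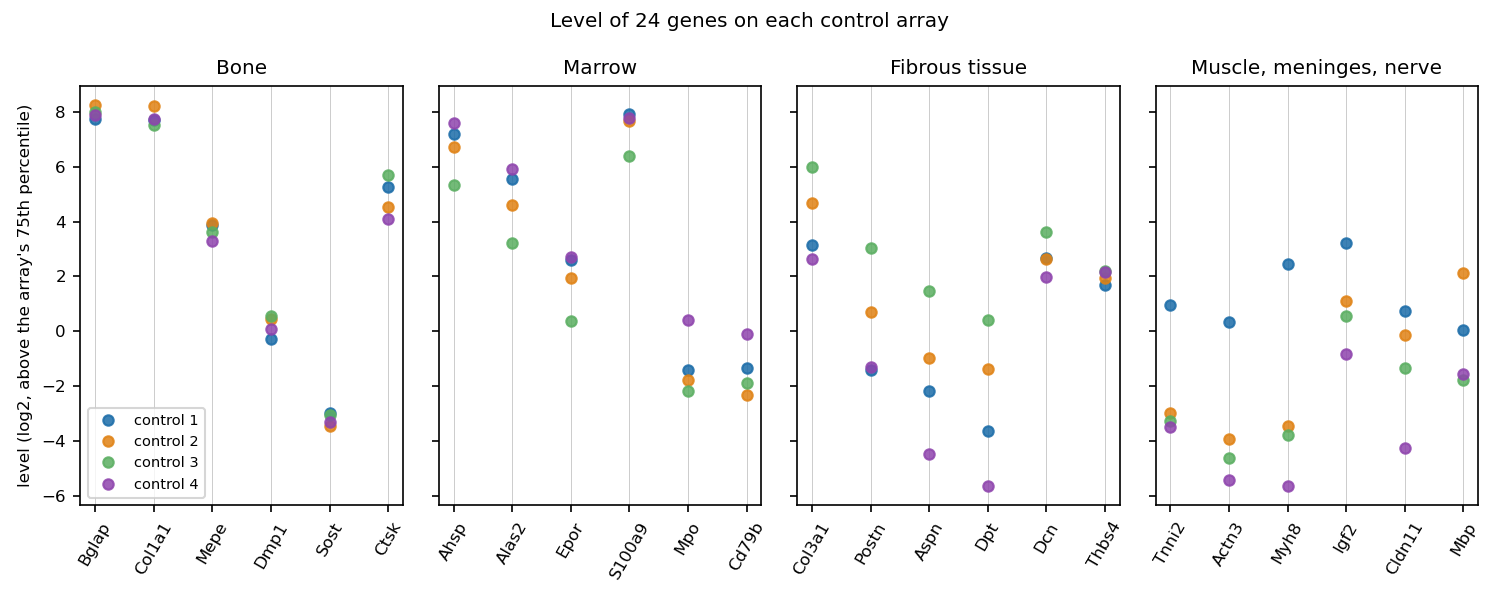
Level (log2, relative to each array's 75th percentile) of 24 genes on controls 1 to 4, one point per array and no error bars. Marrow genes are lowest on control 3 except Cd79b, fibrous tissue genes other than Thbs4 are highest on control 3, and Tnni2, Actn3 and Myh8 are highest on control 1.

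Genes of the meninges, the membranes under the skull, were lowest on control 4. Of 10, 7 were members, all 7 had a range over 1, and control 4 was lowest for 6 of them. Igf2, which other mesenchyme also makes, ran from 3.24 on control 1 to -0.84 on control 4. Cldn11, a tight junction gene of the arachnoid and of myelin, read 0.74, -0.13, -1.33 and -4.26. Slc22a6, an organic anion transporter of meninges, stood out on control 2, with -4.31, -1.41, -5.44 and -4.78. Ptgds, the prostaglandin D synthase of leptomeninges, was also highest there, with -1.50, 3.03 and -4.09 on controls 1 to 3, and was not well above background on control 4. Slc6a13 was well above background on control 2 only, and Aldh1a2 on controls 1 and 2.

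Of 14 genes of neurons and central glia, 1 was a member, Slc17a7 at -4.67 ± 0.38. A further 7 were well above background on some arrays, and Mog, Syn1, Nefl, Nefm, Stmn2 and Neurod6 were on no array. On control 2, Gad1, which makes GABA, read -2.60 and Aqp4, the water channel of astrocytes, -3.21. Both were also well above background on control 1, at -6.22 and -6.26, and on neither control 3 nor control 4. Syt1 and Slc1a2 were well above background on control 2 only. Among 10 nerve sheath genes, 7 were members. Mbp, myelin basic protein, read 0.04, 2.12, -1.77 and -1.54, highest on control 2. Sox10 was steady at -3.94 ± 0.19.

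Of 15 skin genes, 9 were members, against 54.4% of all gene names. They were mostly at low signal, with a list median at percentile 2.46. Most liver and pancreas genes were not members. Krt5 and Krt14, keratins of the basal layer, had means of -6.07 ± 0.27 and -5.77 ± 0.24, near the lowest member level of -6.54, and Flg, Lor, Ivl and Epcam were on no array. Tp63, the brightest of the list at 1.88 ± 0.34, is the one read by a probe with a CAG repeat, and its next probe was well above background on no array. Cdh1, which red cell precursors also express, read -0.08, -0.55, -1.59 and -0.13. Of 14 liver genes, 3 were members, and Alb, Apoh, Apob, Fga, Fgb, Serpina1, Tat and Cyp2e1 were on no array. Ahsg, fetuin, which is made in liver and binds to bone mineral, was the brightest at 1.57 ± 0.20 through the probe with a CTG repeat, while its next probe read -4.58, -3.84, -4.33 and -4.13. Arg1 read -3.33, -1.61, -1.19 and -4.80. Of 10 pancreas genes, Ctrb1 at -2.80 ± 0.24, whose probe holds CCCTGGGTTC, and Ins1 at -3.63 ± 0.29 were members, and Prss1, Pnlip, Cela2a, Gcg and Pdx1 were on no array.

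Housekeeping genes showed how level the arrays were. All 29 ribosomal protein genes and all 25 respiratory chain genes were members, with median percentiles of 99.5 and 92.8, and no gene of either list had a range over 1. The ribosomal list deviated by 0.02, -0.06, -0.03 and 0.07, a range of 0.13 that became 0.48 with arrays centred on spike-in controls. Among the 10 symbols with the smallest SD among members above the median level were Rps29, with 7.16, 7.14, 7.14 and 7.11, Ccdc127, with 0.54, 0.54, 0.53 and 0.56, Dph1, Tdrd7, Tmem140, Chmp2b, Cept1 and Wdr24.

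Of 15 immediate early genes, 12 were members, and 4 of these had a range over 1, against 28.2% of all members. Fos read -5.95, -4.17, -4.13 and -6.44, Jun ran from -1.72 on control 4 to 0.33 on control 3, and Atf3 read -2.32, -0.15, -0.47 and -3.23, all higher on controls 2 and 3. Btg2, the other of the 4, ran the other way, with 0.67, 0.09, -0.68 and 1.07, and 5 of the 12 were lowest on control 3. Of 16 inflammatory cytokine and chemokine genes, 11 were members, with a median at percentile 26.1. Ccl2, which draws monocytes, read -1.46, 0.76, 0.66 and -2.77, and Ccl7 -3.34, -1.45, -1.52 and -6.07, in the same order. Cxcl1, Cxcl2 and Cxcl3, which draw neutrophils, were well above background on controls 1 to 3 and not on control 4. Il1b had a mean of -0.51 ± 0.40, and Il6 was on no array. Interferon-response genes were moderate, with 11 of 13 detected and a median at percentile 66.4. Rsad2, an antiviral enzyme, ran from 2.93 on control 3 to 5.12 on control 4, and Mx2 had a mean of 3.83 ± 0.13. Among clock genes, 11 of 15 were members. Dbp, an output of the clock, read 0.88, 1.35, 2.53 and 1.34, Arntl -3.77, -3.85, -4.14 and -4.30, and Per2 -3.05, -3.20, -2.14 and -3.33. The labels used here give no time of day.

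Hox genes, which pattern the trunk and limbs and are silent in cells of the anterior neural crest, were mostly not detected. Of 35 on the array, 23 were well above background on no array and 5 were members. Hoxa7, expressed in blood precursors too, read -1.88, -3.57, -5.68 and -1.71, in an order close to that of the marrow genes, and Hoxd12 read -3.96, -4.32, -4.95 and -2.95. Hoxc6, Hoxc8 and Hoxd3 lay at -5.85 ± 0.12, -5.87 ± 0.39 and -6.01 ± 0.25. Of the Y-linked genes, Eif2s3y at -1.37 ± 0.11, Kdm5d at -2.34 ± 0.38 and Ddx3y at -3.44 ± 0.26 were members, Sry was well above background on controls 1 to 3, and Uty and Usp9y were on no array.

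Over all members the median SD was 0.30 and the median range 0.68, or 1.60-fold. Of the 18987 members, 5346 (28.2%) had a range over 1, 1057 (5.57%) over 2 and 43 over 4. For the 1842 member probes spotted 2 to 10 times on each array, the SD among repeat spots of an array had a median of 0.058 to 0.066, against 0.30 among arrays for the same probes. Repeat spots share 1 RNA, labelling and hybridization, so they measure only the noise between spots and give no test of the spread between samples. The median SD was 0.36 in the dimmest decile of signal, 0.39 in the second and 0.21 in the tenth. The share with a range over 1 was 31.8%, 40.1% and 20.0% in these deciles, so both were highest in the second decile.

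**Figure D5:**
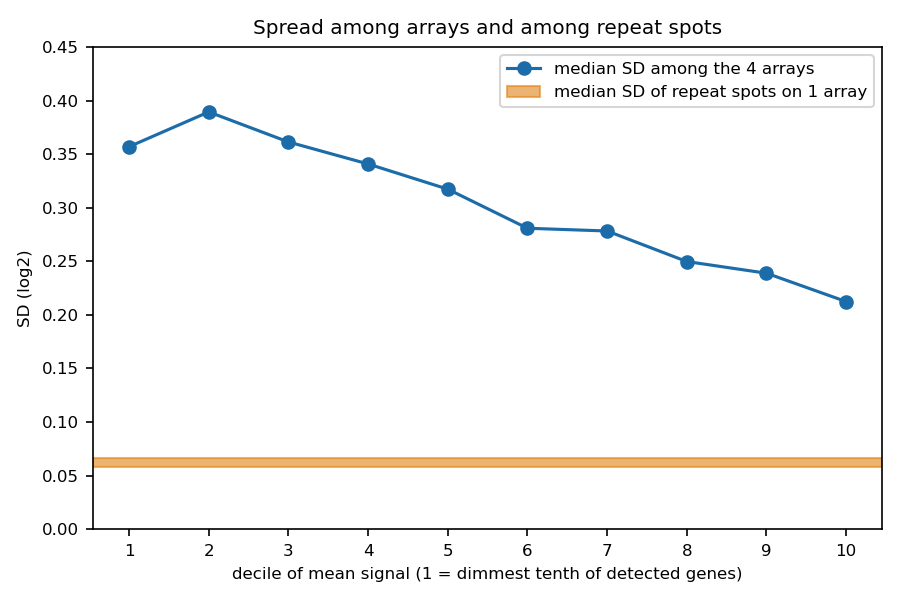
Median SD (log2) among the 4 control arrays of the members in each decile of mean signal (line, decile 1 the dimmest), and the range over the 4 arrays of the median SD among repeat spots (band). The SD among arrays is 0.36 in decile 1, 0.39 in decile 2 and 0.21 in decile 10; the band, at 0.058 to 0.066, holds noise between spots alone.

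Controls 3 and 4 were the extremes. Across genes, which are not independent replicates, the Pearson correlation between arrays was highest for controls 1 and 2 and for controls 2 and 3, at 0.983 for each, and lowest for controls 3 and 4, at 0.945. Between controls 3 and 4, 4072 members (21.4%) differed more than 2-fold, against 927 (4.88%) between controls 1 and 2. The first principal component held 67.3% of the variance and placed controls 1 to 4 at 0.16, -0.14, -0.45 and 0.43. The second held 21.7% and placed control 1 at 0.29, apart from the others. Of the 5346 members with a range over 1, 1642 (30.7%) were highest on control 4 and lowest on control 3, and 1378 (25.8%) the reverse. In all, 40.1% of the 5346 were highest on control 4 and 37.4% on control 3. The lowest array was control 3 for 40.8% and control 4 for 34.2%. Counts by array in the lists above are to be read beside these shares, though they include members with narrower ranges.

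Several of the 15 widest symbols belonged to no list or crossed lists. Igfbp2, an IGF binding protein, had the widest range, 8.72, with 2.54, 0.51, -0.98 and -6.18. Cpxm2, a carboxypeptidase-like protein, read 1.91, -1.48, -0.48 and -5.48, and Ucma, a Gla-rich cartilage protein, 1.59, -2.77, -1.78 and -4.77. All 3 were highest on control 1 and lowest on control 4. Crabp1, a retinoic acid binding protein, read -4.90, -2.73, -1.06 and -6.29, and Thbs2, a matrix protein of fibroblasts, -1.28, -0.43, 1.70 and -3.13, both in the fibroblast order. Mucl1 and Spock2 were highest on control 1 and lowest on control 4, with ranges of 4.79 and 4.63. Slc13a3, a dicarboxylate transporter, was highest on control 2, with -3.27, -0.23, -2.84 and -5.06.

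For each array, symbols on which it stood farthest from the nearest other array were picked. Distinct sets per array follow from this choice and are no result. Control 1 stood lowest for Sytl4, with -2.93, -0.60, -1.22 and -0.36, and for the osteocyte gene Sgms2, with -3.33, -2.07, -1.65 and -2.07. Control 2 stood lowest for Ces1d, with 1.39, -2.63, -1.36 and -0.76, and for Lipe and Pdk4. Control 3 stood highest for Cxcl13, the chemokine that draws B cells, with -5.85, -5.63, -2.92 and -5.42, and for Angptl2 and Ptn, and lowest for Rnls, with 4.32, 2.95, 0.92 and 4.52, and Il1r2, with 1.02, 0.52, -1.47 and 0.99. Control 4 stood highest for Rag1, Rag2, Dntt, Igll1 and Mpo, and lowest for Igfbp6, with -1.17, -1.69, -0.85 and -5.20.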

How the data were processed

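RNA of control bone was measured on 4 Agilent arrays of 1 colour (Cy3), with 62976 spots and 45598 non-control probes each. The authors deposited scanner intensity on a linear scale, background-subtracted per the file headers and made with Agilent Feature Extraction 11.0.1.1. The authors' deposited table of quantile-normalized log2 values served only as an alternative.

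Levels were log2 intensity minus each array's 75th percentile, averaged over spots of a probe. Outlier spots (316 to 406 per array) were left out unless a probe had no other. No test was made, since 1 group was described. Values are levels, SDs and counts, with Dixon's ratio for 1 array apart from 3. The functions were tested on simulated data. Normexp values came from limma 3.58.1.

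The genes and the 34 marker lists were chosen with earlier results of these data known. Genes named were the 30 brightest symbols, per list up to 8 brightest, 3 widest and any detected on no array, the 15 with the widest range among all symbols, per array up to 8 symbols farthest above and 8 below, the 10 with the smallest SD among members above the median level, Sost, and detected Hox and sex-linked genes. Not every gene the rule allows is described, and some are not reported here. Exceptions are named where they appear. The array design supplied the gene names, and 10429 members' accessions were found in a RefSeq table of GRCr8, from which promoter sequences also came.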

Additional observations from a re-analysis of the deposited data

Results flagged for a closer look

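Values in which 1 array stood far from the other 3 are given here, by the gap to the nearest array divided by the whole range (Dixon's ratio, above its 95% critical value for 4 samples). Chance marks about 1 in 20 groups. Over all members 846 of 18987 (4.46%) were marked, and of the 194 members named in the text 7 (3.61%).

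Of the 34 lists, 1 was marked: the skeletal muscle genes, with a mean deviation of 2.38 on control 1 and a ratio of 0.852. Tnni2, at 0.97, and Atp2a1, at 0.71, were marked as high on control 1. The neutrophil genes S100a8, at 6.12, and S100a9, at 6.38, were marked as low on control 3. Also marked on control 3 were Ahsg, low at 1.27, the ribosomal protein gene Rplp2, low at 6.74, and Cxcl13, high at -2.92. These shares are near or below what chance gives, so the marks are listed as values alone.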

How the results depend on the processing

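Each result was a value with no test. The number of members stayed within 1.5 times 18987 under all 12 alternatives. The 5346 members with a range over 1 became 2492 with normexp background correction, 8295 with detection on at least 1 array, 3045 in the deposited table, and 2944 to 5049 with 1 array left out (2944 without control 3, 3292 without control 4). The median SD of 0.30 became 0.19 with normexp. The range of the ribosomal list between arrays, 0.13, became 0.22 with quantile normalization, 0.069 with the percentile over detected probes, 0.48 with spike-in centring and 0.27 in the deposited table.

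With the mean of a gene's detected probes, the median percentile of dividing cell genes became 78.0 and of ribosomal genes 99.2. With detection on at least 1 array, the osteocyte list moved to 70.6, osteoclast to 78.6, meninges to 51.8 and ribosomal to 99.6. In the deposited table the osteocyte list stood at 72.3, skeletal muscle at 47.6 and ribosomal at 99.2. These lists are only part of those that moved by more than their SD among arrays. Such moves numbered 17 of 34 lists in the deposited table and 18 of 34 with detection on at least 1 array. Levels of single genes of the lists and rankings moved likewise for 261 of 389 in the deposited table. The counts were 152 of 419 with the percentile over detected probes and 115 of 419 with normexp.

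With 1 array left out, the range between arrays ran from 0.51 to 3.68 for skeletal muscle, 1.18 to 2.43 for erythroid, 0.96 to 1.96 for neutrophil, 1.23 to 2.25 for periosteum and suture, 0.86 to 1.96 for B cell and 0.64 to 1.42 for dividing cell genes. The lowest values came without control 1 for muscle, without control 3 for erythroid and neutrophil genes, and without control 4 for the others. Among the 8 alternatives that kept all arrays, the erythroid, neutrophil, dividing cell and periosteum lists had the same highest and lowest arrays in 8, skeletal muscle in 6 and meninges in 3. Except for counts with an array left out, which rest on fewer arrays, the cause of these moves was not tested.

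No paired analysis was possible because 1 group was described and the results come from no test. Signal over background limits the dimmest genes, and 4 arrays on 1 slide limit every measure of spread.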
